A study of Homo sapiens with 8 samples.

Results

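The genes described are 10 regulators of the G1 phase of the cell cycle, chosen by gene symbol: the CDK inhibitors CDKN1A, CDKN1B, CDKN2A, CDKN2B and CDKN2C, the D cyclins CCND1, CCND2 and CCND3, and their kinases CDK4 and CDK6. All 10 were found among the 30386 genes of the deposited table, and all 10 passed the filter on low counts that left 15330 genes for testing. RNA sequencing was done on cells of WTC-TJP1, an established line of human induced pluripotent stem cells, after differentiation into endothelial cells (iEC, 4 samples) or retinal endothelial cells (iREC, 4 samples). Both groups come from that single line, both were analysed at passage 1, and the labels name no further treatment, agent or genotype for either. Samples carry the letters C, D, E and F in each group; no label says whether they are separate differentiations, so p-values measure only the spread between these samples, which may be technical.

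A cell leaves G1 when cyclin D bound to CDK4 or CDK6 phosphorylates the retinoblastoma protein RB1 and its relatives, which releases E2F factors and starts transcription of S phase genes. INK4 inhibitors (CDKN2A, CDKN2B and CDKN2C here, and CDKN2D outside the 10 genes) bind CDK4 and CDK6 and keep cyclin D away. CIP/KIP inhibitors (CDKN1A, CDKN1B) bind complexes of cyclin and kinase, mainly those of CDK2, and can also help cyclin D and its kinase assemble. In cultured endothelial cells CCND1 is known as the cyclin that answers to growth factors and adhesion, CDKN1A as a p53 target, and CDKN2A as a gene that accumulates with repeated passage.

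The iEC libraries held 14877502 to 16971865 counts each and the iREC libraries 13739364 to 15987839, and a count of 3, taken as the floor, was worth 0.178 to 0.215 CPM (a count divided by the TMM-scaled library size). All 10 endothelial markers examined, among them PECAM1, CDH5 and KDR, were detected in every sample. Their summed level was 6935 to 8908 CPM in iEC and 4384 to 9909 CPM in iREC. The sum hides opposite moves: edgeR, at an adjusted p of 0.05, called 3 lower in iREC (PECAM1, CDH5, EGFL7) and 3 higher (TEK, CLDN5, EMCN). PECAM1 fell from a mean of 2233 to 754 CPM, while EMCN rose from 4.21 to 432 CPM. KDR was not called. The mean log2 CPM of the list was 8.12 to 8.34 over iEC samples and 8.45 to 9.54 over iREC samples. The 12 mural and mesenchymal markers summed to 253 to 518 CPM in iEC and 1326 to 5775 CPM in iREC, highest in iREC F. This list was uneven: of its 10 tested genes, 3 were called higher (TAGLN, POSTN and LUM) and 1 lower (RGS5). Its median log2 fold change was 2.35, but only TAGLN and POSTN separated all samples by group. TAGLN rose from a mean of 34.6 to 619 CPM and POSTN from 13.4 to 852 CPM, while RGS5 fell from 116 to 43.9 CPM. The 6 epithelial markers reached 4924 CPM in iREC F against 302 to 1117 CPM in the other iREC samples. Of 6 retinal pigment and neural markers found in the table, the summed level was 2.81 to 10.02 CPM over all samples. In bulk RNA, fewer cells of a type and less RNA per cell cannot be told apart.

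The genes were chosen with results of this contrast in view (CDKN2A, CCND1 and CDKN1A had stood out in it), so their differences between iREC and iEC are given as levels, with no p-value. For orientation, 8 of the 10 passed an adjusted p of 0.05 in edgeR's quasi-likelihood test, where 25.0% of all tested genes did. Of these 8, 3 were higher in iREC (13.2% of all tested genes) and 5 were lower (11.7%). In 8 of the 10 the groups did not overlap, as in 29.1% of tested genes. The median log2 fold change of iREC over iEC was -0.67 over the 10 genes and 0.020 over all tested genes; the median size without sign was 1.66 against 0.39.

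**Figure D1:**
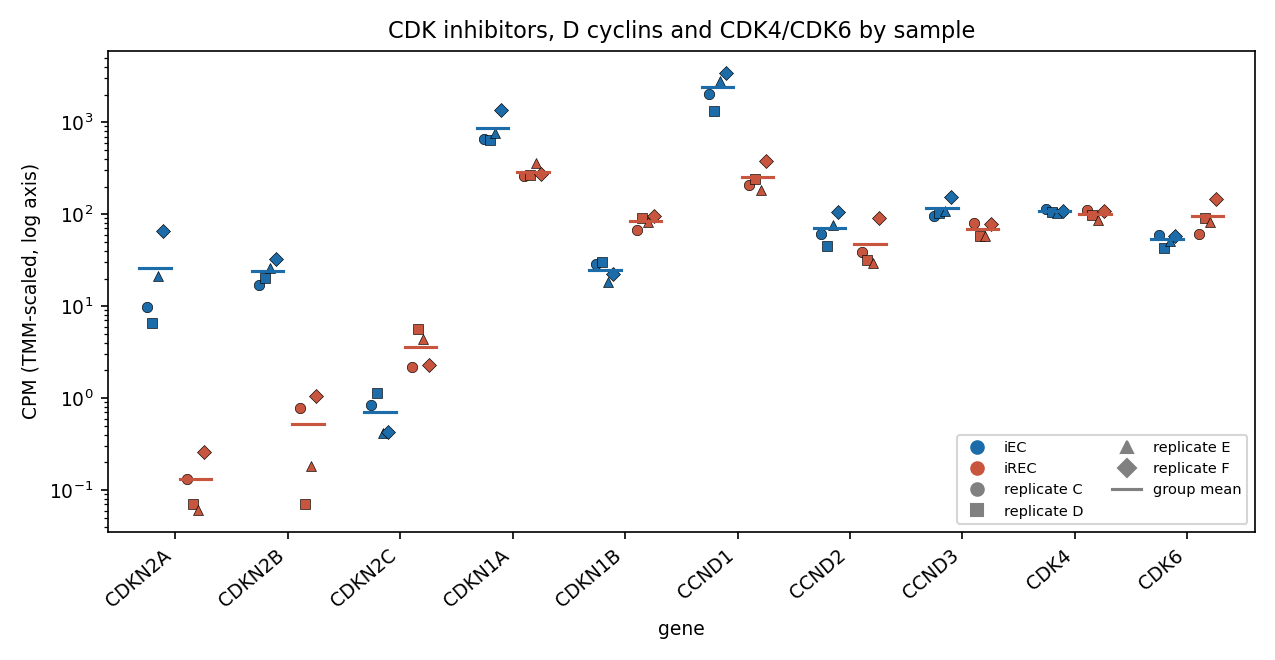
Level of each gene in every sample, in CPM on a log axis; blue is iEC, red is iREC, symbols mark the replicate letter and bars the group mean (n = 4). CDKN2A and CDKN2B in iREC lie at 0.061 to 1.05 CPM, under every iEC value of those genes, while the groups overlap in CCND2 and CDK4.

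CDKN2A encodes 2 proteins from 2 starts that share later exons in different reading frames: p16INK4a, an inhibitor of CDK4 and CDK6, and p14ARF, which stabilises p53. The gene spans chromosome 9, 21967753 to 21995301 on the minus strand (GRCh38, ENSG00000147889). RefSeq places the ARF start at 21995324 and the INK4a start at 21974857, 20467 bases further on, and counts per gene do not separate the transcripts. CDKN2B (ENSG00000147883, chromosome 9, 22002903 to 22009363, minus strand) encodes p15INK4b and lies next to it. The upstream sequences are shown because these neighbours had the lowest iREC levels of the 10 genes; they are RefSeq promoter windows (GRCh38.p14, minus strand, 5′ to 3′), cut to the longest run outside GENCODE exons, with capitals for the GC box GGGCGG in either orientation.
CDKN2A upstream of the ARF start, chr9:21995325-21995481: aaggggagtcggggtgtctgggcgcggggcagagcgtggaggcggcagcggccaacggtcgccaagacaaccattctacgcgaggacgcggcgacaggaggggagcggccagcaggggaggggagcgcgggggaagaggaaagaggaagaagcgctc
CDKN2B, chr9:22009364-22009555: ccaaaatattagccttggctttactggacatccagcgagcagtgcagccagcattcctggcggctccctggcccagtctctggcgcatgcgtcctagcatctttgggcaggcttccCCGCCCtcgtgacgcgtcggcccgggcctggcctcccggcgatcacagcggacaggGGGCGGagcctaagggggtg

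CDKN2A had 152, 103, 358 and 918 counts in iEC C, D, E and F, and 2, 1, 1 and 4 counts in iREC C, D, E and F. In CPM these were 9.88, 6.51, 21.2 and 65.7 in iEC, and 0.131, 0.071, 0.061 and 0.262 in iREC. Every iREC library but F was at or under the floor of 3 counts, and the lowest iEC sample was still 24.8 times the highest iREC sample. Over summed counts (1531 against 8) iEC was 188 times iREC, with an exact 95% interval of 95.1 to 436 that covers counting error only. The fitted log2 fold change of -7.53 ± 0.97 (SE) went to -6.50 without iEC F. CDKN2B had 17.1, 20.1, 25.7 and 32.5 CPM in iEC C, D, E and F, and 0.785, 0.071, 0.183 and 1.05 CPM in iREC. Its iREC counts were 12, 1, 3 and 16, so iREC C and F stood above the floor and D and E did not. Summed counts of 1470 and 32 gave a ratio of 45.1 (95% interval 31.8 to 66.2), and the log2 fold change was -5.49 ± 0.59 (SE).

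CDKN2C, which encodes p18INK4c (ENSG00000123080, chromosome 1, 50960745 to 50974633), ran the other way. It had 0.845, 1.14, 0.414 and 0.429 CPM in iEC C, D, E and F, and 2.16, 5.71, 4.397 and 2.29 CPM in iREC. Its iEC counts were only 13, 18, 7 and 6. The groups did not overlap, and the log2 fold change was 2.35 ± 0.48 (SE). On the per-length scale (deposited FPKM, a level divided by gene length and library size), CDKN2A, CDKN2B and CDKN2C summed to 6.60, 6.67, 11.2 and 23.9 in iEC C, D, E and F and to 0.859, 1.72, 1.35 and 1.003 in iREC. CDKN2C was the lowest of the 10 genes in iEC at 0.210 ± 0.102 FPKM, and above CDKN2A and CDKN2B in iREC at 1.08 ± 0.503 FPKM (SD, n = 4). CDKN2D, the remaining INK4 gene (p19INK4d), had 3.68, 5.19, 4.04 and 3.22 FPKM in iEC C, D, E and F and 8.34, 5.39, 5.52 and 7.01 FPKM in iREC. It was the highest of the 4 INK4 genes in each iREC sample, and was not called (log2 fold change 0.71, edgeR adjusted p 0.0563). With it, the INK4 sum was 16.1 ± 7.63 FPKM in iEC and 7.80 ± 1.06 FPKM in iREC (SD, n = 4), and the groups did not overlap, with 10.3 FPKM in the lowest iEC sample and 9.20 FPKM in the highest iREC sample.

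Of 4 tested neighbours of the locus on 9p21, 1 was called, and 2 without iEC D or without iREC F. MTAP, a methionine salvage enzyme, was not called (log2 fold change -0.37, edgeR adjusted p 0.0760), and neither was KLHL9 (0.37, adjusted p 0.0611) or DMRTA1 (-0.87, adjusted p 0.432). ELAVL2, a neuronal type RNA-binding protein, fell from 27.9 ± 9.09 to 5.40 ± 1.78 CPM (edgeR adjusted p 0.000832; values ± SD, n = 4). CDKN2B-AS1, the antisense RNA ANRIL that overlaps both inhibitors on the opposite strand, had 0 to 4 counts in any sample and was not tested, and IFNE had at most 0.178 CPM.

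CDKN1A encodes p21 (ENSG00000124762, chromosome 6, 36676460 to 36687339, plus strand). Its level was 658, 638, 764 and 1365 CPM in iEC C, D, E and F, and 259, 264, 360 and 276 CPM in iREC. The lowest iEC sample was 1.77 times the highest iREC sample, and the log2 fold change was -1.56 ± 0.26 (SE). CDKN1B encodes p27 (ENSG00000111276, chromosome 12, 12715058 to 12722371, plus strand) and had the opposite order: 28.996, 30.1, 18.3 and 22.4 CPM in iEC C, D, E and F, and 68.0, 91.7, 81.5 and 96.4 CPM in iREC. The lowest iREC sample was 2.26 times the highest iEC sample, and the log2 fold change was 1.76 ± 0.19 (SE). In FPKM, CDKN1A was 20.9, 19.5, 38.4 and 56.1 times CDKN1B in iEC C, D, E and F and 3.50, 2.65, 4.06 and 2.64 times in iREC, a ratio formed after the values had been seen. CDKN1A thus stayed the higher of the pair in each of the 8 samples.

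Promoter windows were matched in RefSeq for 8 of the 10 genes, all but CCND1 and CCND2. They came to 14 windows of 250 bases before a start, with 3 each for CCND3 and CDKN2C. The 14 windows were not cut to bases outside exons. GENCODE exons cover 152 of the 250 bases for CDKN1A, 244 for CDKN1B and 241 at the INK4a start of CDKN2A. They cover all 250 in some windows of CCND3 and CDKN2C. The stretches around the GC box nearest to the start are printed for CDKN1A, CDKN1B and the INK4a start of CDKN2A. The levels of CDKN1A and CDKN1B ran in opposite directions. The box GGGCGG is in capitals, and CDKN1A has 2 overlapping boxes in its stretch.
CDKN1A, chr6:36678662-36678691, plus strand: cgggcccGGGCGGGGCGGttgtatatcagg
CDKN1B, chr12:12717285-12717314, plus strand: ccagcctcggcgGGGCGGctcccgccgccg
CDKN2A at the INK4a start, chr9:21974877-21974906, minus strand: caccagagggtgGGGCGGaccgcgtgcgct
The box was in 10 of the 14 windows and in 42.6% of 34788 such windows of all genes, searched on both strands. The share of G and C was 45.6% and 48.8% in 2 windows of CDKN2C and 61.2% to 80% in the others. Its median over windows of all genes was 58.0%. The box holds only G and C, so its frequency depends on that share. The ARF window was among the 4 without it. None of the 14 windows held the E2F motif TTTNNCGC (5.89% of all windows), the AP-1 motif TGANTCA (6.59%), the CRE TGACGTCA (1.64%), the forkhead motif GTAAACA (2.98%) or TATAAA (10.8%). A match or its absence describes only these letters in this window.

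CCND1 encodes cyclin D1 (ENSG00000110092, chromosome 11, 69641087 to 69654474, plus strand). It had 2033, 1342, 2786 and 3468 CPM in iEC C, D, E and F, and 208, 241, 182 and 381 CPM in iREC. The lowest iEC sample was 3.52 times the highest iREC sample, and the log2 fold change was -3.25 ± 0.35 (SE). LTO1 overlaps its end on the opposite strand with means of 27.9 and 22.9 CPM; whether counting used the strand is not stated, so some reads may be shared. CCND3, cyclin D3 (ENSG00000112576, chromosome 6, 41934933 to 42050357), had 95.8, 104.1, 108 and 156 CPM in iEC C, D, E and F, and 80.5, 58.5, 58.5 and 78.7 CPM in iREC. The groups did not overlap, by a margin of 1.19 times, and the log2 fold change of -0.75 ± 0.19 (SE) no longer passed the threshold without iREC D or without iREC E.

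CCND2, cyclin D2 (ENSG00000118971, chromosome 12, 4273772 to 4305350), had 61.4, 44.7, 76.2 and 104 CPM in iEC C, D, E and F, and 38.4, 31.8, 29.4 and 90.6 CPM in iREC. The groups overlapped through iREC F, which lay above every iEC sample but F. The log2 fold change was -0.59 ± 0.39 (SE), did not pass the threshold, and was -1.11 and past it without iREC F. The 12 mesenchymal markers were also highest in that sample, at 5775 CPM against 1326 to 2093 CPM in the other iREC samples. So were the 6 epithelial markers (4924 against 302 to 1117 CPM) and 5 pluripotency markers (505 against 53.3 to 173 CPM). The endothelial markers were lowest there, at 4384 against 7523 to 9909 CPM. The part of any of these in the CCND2 level of iREC F was not tested.

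CDK4 (ENSG00000135446, chromosome 12, 57747727 to 57756013) had nearly the same level in every sample: 115, 106, 103 and 108 CPM in iEC C, D, E and F, and 111, 98.7, 87.6 and 108 CPM in iREC. Its log2 fold change was -0.087 ± 0.11 (SE), and the groups overlapped. Its ends are overlapped on the opposite strand by TSPAN31 (mean 15.0 CPM in iEC and 13.8 in iREC) and MARCH9 (10.8 and 16.3). CDK6 (ENSG00000105810, chromosome 7, 92604921 to 92836594) had 59.6, 43.4, 51.0 and 58.7 CPM in iEC C, D, E and F, and 61.3, 90.7, 82.8 and 145 CPM in iREC. The groups were separated by iREC C alone, at 1.03 times the highest iEC sample. The log2 fold change of 0.84 ± 0.25 (SE) went under the threshold in 6 of the 8 fits that left out a sample, all but those without iREC C or iREC F, and was 0.56 without iREC F. The mesenchymal markers had a mean log2 CPM of 5.10, 6.66, 5.64 and 8.46 in iREC C, D, E and F. CDK6 had the same order, but the sums of these markers, 1512, 2093, 1326 and 5775 CPM, did not. The mean log2 CPM of the epithelial markers (3.27, 6.09, 4.62 and 7.55) also had the CDK6 order. So did that of the 2 tested pluripotency markers (4.70, 5.92, 5.13 and 6.71). The part of any of these markers in the CDK6 level was not tested.

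The make-up of the cyclin and kinase pools was compared on the FPKM scale. The 3 D cyclins summed to 436, 296, 598 and 779 FPKM in iEC C, D, E and F, and to 61.3, 63.0, 50.7 and 104 FPKM in iREC. CCND1 supplied 94.0% ± 1.39 of that sum in iEC and 73.6% ± 3.53 in iREC (SD, n = 4). CCND3 took 4.06% ± 1.28 and 17.6% ± 4.11, and CCND2 1.92% ± 0.127 and 8.87% ± 2.22. CCND1 therefore remained the main D cyclin transcript in every sample, at 69.2% or more. The summed level of CDK4 and CDK6 was 38.1 ± 2.23 FPKM in iEC and 39.1 ± 5.04 FPKM in iREC, and CDK6 made up 11.3% ± 1.198 and 19.3% ± 5.43 of it.

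**Figure D2:**
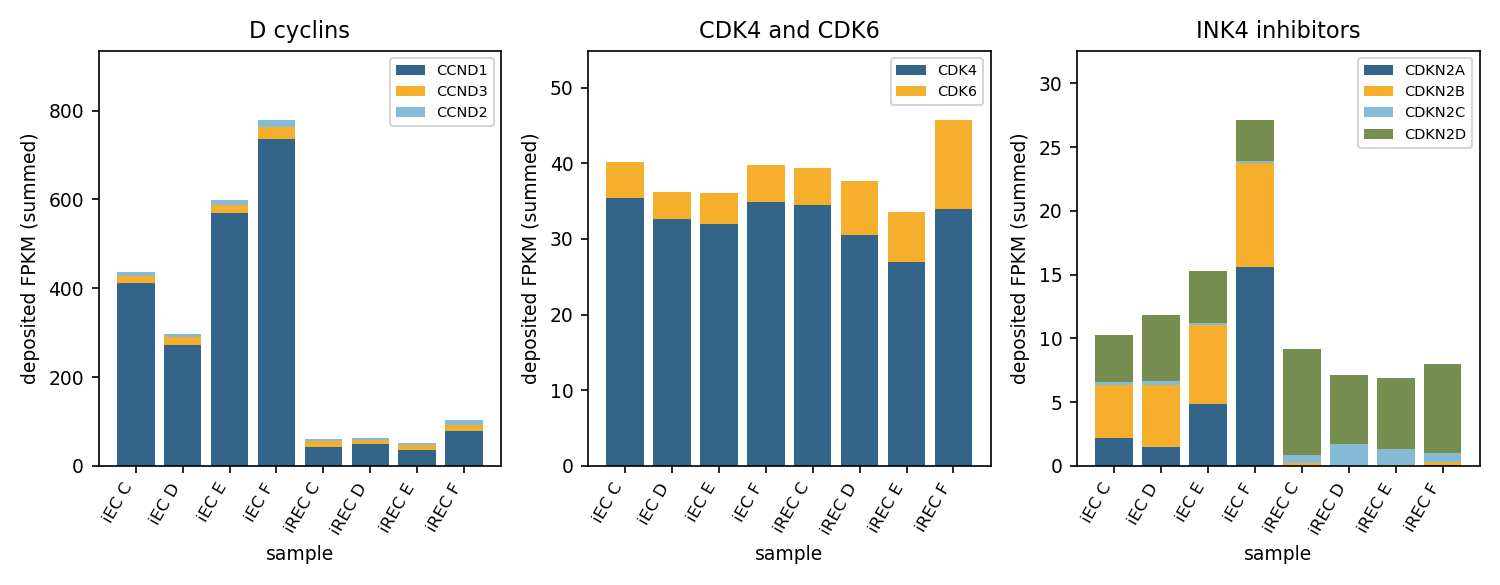
Summed FPKM of the D cyclins, of CDK4 and CDK6, and of the INK4 inhibitors, CDKN2D included, in each of the 8 samples, with a colour per gene; each axis starts at 0 and has its own range. The D cyclin sum is 296 to 779 in iEC and 50.7 to 104 in iREC, while the kinase sum is 33.6 to 45.7 over all samples; CDKN2D makes up most of the INK4 bar in each iREC sample.

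Ordered by mean FPKM, iEC had CCND1 (497 ± 200.3), CDKN1A (281 ± 120.4), CDK4 (33.8 ± 1.66), CCND3 (19.9 ± 5.14) and CCND2 (9.99 ± 3.77) in the lead, then CDKN1B, CDKN2A, CDKN2B and CDK6 between 8.80 and 4.31, and CDKN2C last. The ranges of CCND1 and CDKN1A overlapped, as did those of each neighbouring pair from CCND2 down to CDK6. In iREC the order was CDKN1A (93.3 ± 14.9), CCND1 (51.6 ± 18.5), CDK4 (31.5 ± 3.48), CDKN1B (29.5 ± 4.50), CCND3 (11.7 ± 2.14), CDK6 (7.63 ± 2.93) and CCND2 (6.55 ± 4.05), with the INK4 genes below (SD, n = 4). There the ranges of CDK4 and CDKN1B overlapped, as did those of CCND3 and CDK6, of CDK6 and CCND2, and of CDKN2B and CDKN2A.

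The 4 iEC samples differed among themselves most in CDKN2A. Its SD over iEC was 1.45 on the log2 CPM scale, with a lower SD in 98.5% of tested genes, and its highest sample (F) was 10.1 times its lowest (D). The median SD over all tested genes was 0.31. CDKN2C had an SD of 0.60, on counts of 6 to 18. CCND1 had 0.59, CCND2 0.51, CDKN1A 0.51, CDKN2B 0.40, CDKN1B 0.33, CCND3 0.31 and CDK6 0.21. CDK4 was among the steadiest of all genes, with an SD of 0.068 and a lower SD in only 3.10% of tested genes. In iREC the order changed: CDKN2B had the widest spread (SD 1.22, on counts of 1 to 16), followed by CCND2 (0.74) and CDKN2C (0.67).

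The direction of that spread was shared by several genes. In 6 of the 10 (CDKN1A, CDKN2A, CDKN2B, CCND1, CCND2 and CCND3) iEC E and F both lay above C and D, and F was highest; over all tested genes, E and F both lay above C and D in 25.5%, and F was highest in 32.3%. In 4 of these 6 (CDKN1A, CDKN2A, CCND1 and CCND2) the samples stood in the order F, E, C, D, as in 9.92% of tested genes. CDKN1B and CDKN2C had the reverse split, with C and D both above E and F, as in 27.4% of tested genes. CDK4 and CDK6 showed neither split.

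The summed level of 20 S phase and mitosis genes ran against the CDKN2A order, at 2241, 2488, 1172 and 514 CPM in iEC C, D, E and F. All 20 were lower in E and F than in both C and D. MKI67, a proliferation marker, had 275, 374, 128 and 22.5 CPM in iEC C, D, E and F. CDK1, the mitotic kinase, had 67.1, 70.2, 27.3 and 8.59 CPM. Of 17 pocket protein and E2F genes, 11 were likewise lower in E and F than in C and D and 0 were higher. Of 26 p53 response genes, 15 were higher in E and F than in C and D and 0 were lower. The epithelial markers followed the same split, with sums of 447, 391, 673 and 1174 CPM in iEC C, D, E and F. The mural and mesenchymal markers summed to 282, 259, 253 and 518 CPM, highest in F and lowest in E. Their mean log2 CPM was 3.26, 3.30, 3.99 and 5.20, with E next to F. Of their 10 tested genes, 6 were higher in E and F than in C and D and 1 was lower. With 1 sample per letter these are descriptions, chosen after the values had been seen, and the part of those markers in the spread was not tested.

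**Figure D3:**
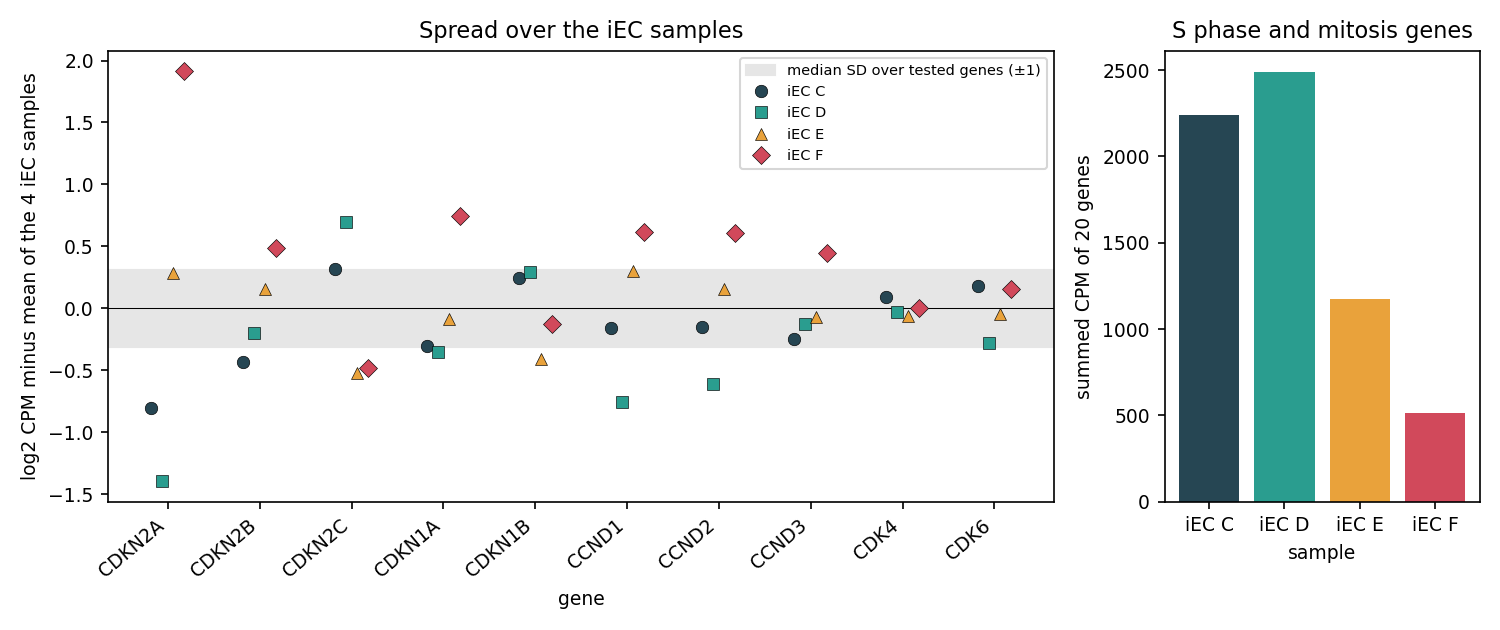
Left, log2 CPM of each gene in iEC C, D, E and F minus the mean of those 4 samples, with the median SD over tested genes (0.31) as a grey band; right, summed CPM of 20 S phase and mitosis genes in the same samples. CDKN2A spreads widest, with F highest and D lowest, and the S phase and mitosis sum is lowest in F and highest in D.

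Other genes of the pathway were tested in lists, against a background of 25.0% of tested genes called and a median log2 fold change of 0.020. Of 16 other CDK inhibitors and G1/S kinase components, 5 were called, 1 higher and 4 lower in iREC (median 0.048). The rise was in CDKN1C, the CIP/KIP inhibitor p57, from 3.91 ± 1.03 to 20.96 ± 5.59 CPM (edgeR adjusted p 0.000416; values ± SD, n = 4). CDK2AP1, a CDK2-binding protein, fell from 178 ± 19.7 to 75.3 ± 12.1 CPM (adjusted p 0.000415 by edgeR). MNAT1, the assembly factor of the CDK-activating kinase, fell by 0.57 on the log2 scale (edgeR adjusted p 0.00855) and CDC37, the chaperone that delivers CDK4 to HSP90, fell by 0.56 (0.00785). CCNA1, cyclin A1, fell by 2.54 with overlapping groups (edgeR adjusted p 0.0478), a call lost in 8 of 17 alternatives. CDK2, CCNE1, CCNE2, CDC25A and SKP2 were not called (edgeR adjusted p 0.153 to 0.982).

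Of 17 pocket protein, E2F and partner genes, 5 were called, 4 higher and 1 lower (median 0.15), and 3 without iEC E or without iREC D. TFDP2, a dimer partner of E2F, rose from 5.24 ± 1.28 to 23.7 ± 5.88 CPM (edgeR adjusted p 0.000439; values ± SD, n = 4) and RBL2, the pocket protein p130, from 41.1 ± 3.71 to 63.4 ± 3.03 CPM (0.00348). E2F2, an activating E2F, rose from 0.838 ± 0.981 to 6.73 ± 1.06 CPM (edgeR adjusted p 0.0234), with 0 counts in iEC F, and E2F3 rose by 0.43 on the log2 scale (0.0386); the E2F2 call was lost in 3 and the E2F3 call in 8 of 17 alternatives. E2F7, a repressive E2F and p53 target, fell from 89.8 ± 37.6 to 16.6 ± 5.31 CPM (edgeR adjusted p 0.00119). RB1, the substrate of the D cyclin kinases, was not called (log2 fold change 0.11, edgeR adjusted p 0.730).

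Of 26 p53 response genes other than CDKN1A, 10 were called, 1 higher and 9 lower (median -0.49). MDM2, the ligase that degrades p53, fell from 362 ± 36.6 to 178 ± 55.9 CPM (edgeR adjusted p 0.00634; values ± SD, n = 4). PLK3, a stress kinase, fell by 1.22 on the log2 scale, FAS, a death receptor, by 1.14, and BBC3, the apoptosis inducer PUMA, by 1.12, with edgeR adjusted p of 0.000335, 0.00121 and 0.00915. PPM1D, a phosphatase that turns p53 off, rose from 52.6 ± 3.83 to 109 ± 22.97 CPM (adjusted p 0.00131 by edgeR).

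Of 17 tested factors known to act on D cyclin, CDKN1A or CDKN1B levels, 12 were called, 6 higher and 6 lower (median -0.54). Among the falls were the AP-1 subunits JUN, from 349 ± 57.8 to 102 ± 13.9 CPM (edgeR adjusted p 9.87e-05; values ± SD, n = 4), and FOSL1, from 87.4 ± 23.8 to 20.8 ± 7.44 CPM (0.000969). JUNB, a further AP-1 subunit, fell by 0.96 on the log2 scale (edgeR adjusted p 0.0163), and EGR1, an immediate early factor, by 2.29 (0.0327), a call lost in 6 of 17 alternatives. The AP-1 subunits did not share a direction: FOSL2 rose from 70.2 ± 8.67 to 136 ± 40.4 CPM (0.00948 as the edgeR adjusted p), while FOS was not called (log2 fold change -0.86, edgeR adjusted p 0.285). FOXO1, a forkhead factor known to act on CDKN1B and the D cyclins, rose from 52.8 ± 10.5 to 135 ± 32.98 CPM, and MYCN, a MYC family factor, from 1.25 ± 1.16 to 51.1 ± 14.9 CPM (edgeR adjusted p 0.0017 and 0.000167). FBXO4, a ligase component known to act on cyclin D1, rose from 3.37 ± 0.279 to 8.16 ± 1.08 CPM (edgeR adjusted p 0.00215). Its cofactor CRYAB also rose (edgeR adjusted p 0.00107), from 0, 1, 0 and 0 counts in iEC C, D, E and F to 20, 21, 12 and 48 counts in iREC. Other factors of cyclin D1 turnover fell: the ligase component FBXO31 by 0.70 and the kinase GSK3B by 0.56 on the log2 scale (edgeR adjusted p 0.00484 and 0.0065). MYC was not called (log2 fold change -0.54, edgeR adjusted p 0.0753).

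Of 19 polycomb genes, known to act on the INK4 locus, 5 were called, 2 higher and 3 lower (median -0.098), and 3 without iEC E or without iREC E. CBX7, a polycomb subunit that binds the methylated histone, rose from 1.21 ± 0.488 to 2.88 ± 0.267 CPM (edgeR adjusted p 0.0219; values ± SD, n = 4). KDM6B, a demethylase that removes the polycomb mark, fell from 42.8 ± 5.97 to 24.2 ± 2.64 CPM (edgeR adjusted p 0.00313). PHC2 fell by 0.64 and BMI1 by 0.72 on the log2 scale (edgeR adjusted p 0.0128 and 0.0248). The calls of CBX7 and BMI1 were lost in 6 of 16 and 4 of 17 alternatives, and EZH2, the methyltransferase, was not called (log2 fold change 0.55, edgeR adjusted p 0.310).

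Of 18 tested senescence-associated genes, 8 were called, 1 higher and 7 lower (median 0.073). The collagenase MMP1 fell from 5715 ± 3029 to 122 ± 88.5 CPM and the chemokine CXCL8 from 507 ± 268 to 51.0 ± 34.3 CPM (edgeR adjusted p 0.000617 and 0.00705; values ± SD, n = 4). The cytokines IL1A and IL1B fell from 75.1 ± 25.5 to 1.35 ± 1.79 and from 44.3 ± 18.4 to 1.96 ± 2.26 CPM (edgeR adjusted p 0.00101 and 0.00241). IGFBP7, a secreted protein that binds insulin-like growth factors, rose from 7.36 ± 4.47 to 289.6 ± 56.1 CPM (edgeR adjusted p 5.06e-05). LMNB1, a nuclear lamin known to be lost in senescence, was not called (log2 fold change 0.087, edgeR adjusted p 0.923). It varied widely within iEC, at 156, 162, 51.3 and 25.4 CPM in C, D, E and F. Of the 18 tested genes, 8 were higher in iEC E and F than in C and D, and 3 were lower. Over all tested genes these shares were 25.5% and 27.4%. None of the 20 S phase and mitosis genes was called by edgeR (0 at an unadjusted p under 0.05, and 0 called by DESeq2 or limma-voom), at a median of 0.30, and the spread of these genes within iEC is given above.

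**Figure D4:**
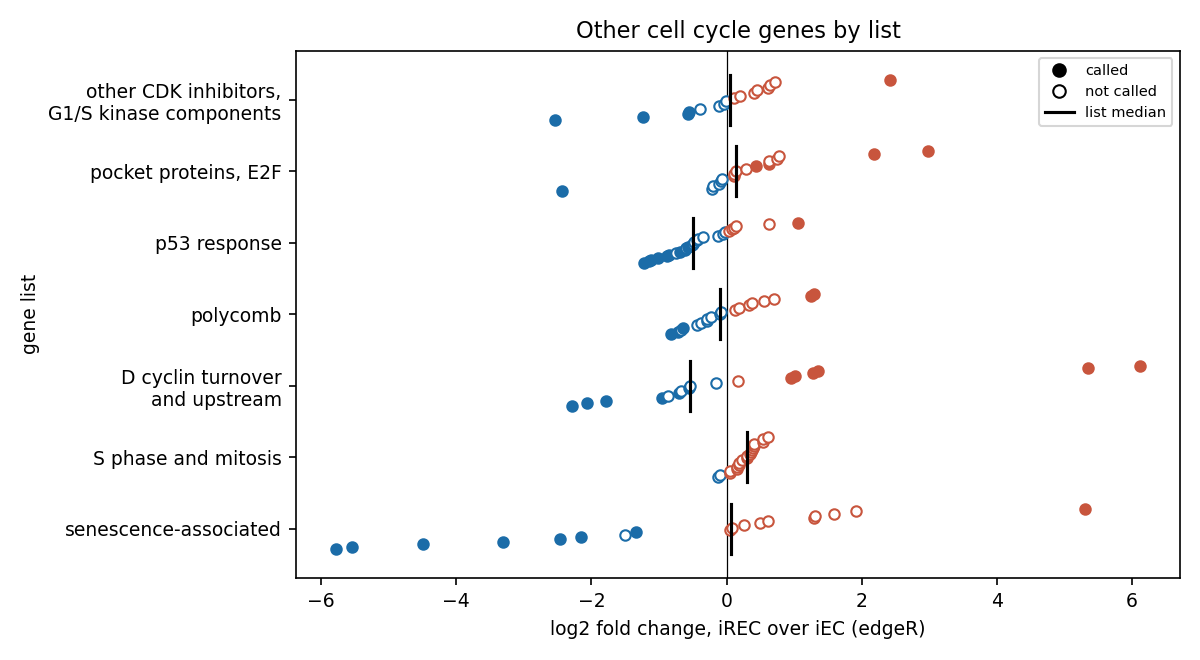
Log2 fold change of iREC over iEC for each tested gene of 7 lists; filled points were called by edgeR at an adjusted p of 0.05, open points were not, blue lies below 0 and red above it, and black bars are list medians. The p53 response list sits mostly below 0 (9 called lower, 1 higher), and the S phase and mitosis list holds open points only.

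The genes whose centred log2 CPM profile over the 8 samples lay nearest to a member were found by the root mean square (RMS) difference. For CDKN2A these were CIDEA, ADAMTS4 and IGFBP6 (RMS difference 0.61 to 0.80 log2 units, against a median of 3.24 over all tested genes), and for CDKN2B AC096537.1, ADAMTS4 and IGFBP6 (0.57 to 0.67, median 2.90). For CDKN1A they were UBTD1, GPX1P1 and FNDC4 (0.19 to 0.21), for CCND1 ZNF185, ARHGAP24 and MAFF (0.26 to 0.30), for CCND2 ZNF385A, S100A10 and SLC16A3 (0.16 to 0.20), and for CDK6 LEPR, FOSL2 and AC010538.1 (0.15 to 0.17). Among the 10 genes themselves, the nearest pairs were CCND3 with CDK4 (0.39), CCND2 with CCND3 (0.42) and CDKN1B with CDKN2C (0.47). CDKN2A with CDKN2B was at 0.90. The RMS difference is not scaled to the size of change, so genes that vary little lie near each other whatever their direction.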

How the data were processed

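Poly-A selected RNA of 8 samples was sequenced with a dUTP second strand, per the labels' protocols. The submitters' processing notes name fastp, HISAT2 2.0.5 and hg38; the counting program and its strand setting are not given in the sources used here. The authors deposited raw counts per gene, FPKM values, a normalized signal (counts divided by 1 size factor per sample, not used here) and log2 fold changes. The deposited FPKM equal that signal per kilobase of gene length at a common library size of 15383181. The authors' deposited table gives log2 fold changes within 0.124 of those computed here for the 10 genes. 

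Counts were filtered by filterByExpr and scaled by TMM, and iREC was compared with iEC by the quasi-likelihood test of edgeR 4.0.16 (group as the only term, Benjamini-Hochberg adjustment over 15330 genes, threshold 0.05; log2 CPM with a prior count of 2). SEs come from the coefficient and the F statistic. On simulated counts for iREC against iEC, edgeR tested 15022 genes. It recovered 61.7% of genes changed by 1.5 and 91.8% of those changed by 3 on the log2 scale, with 3.27% of calls false. On the same simulated counts, 24.3% of DESeq2 calls and 2.61% of limma-voom calls were false. The simulation changed only 200 genes and drew counts from dispersions fitted by edgeR, while 3829 genes were called in the data. These rates, and their order between the tools, hold for that setting and need not hold for the calls made here. Alternatives used DESeq2 1.42.0 on all genes and, added after its first result had been seen, on the filtered genes, limma-voom (limma 3.58.1), other scalings and filters, the replicate letter as a block, and each sample left out. The members and the lists (196 of 197 symbols matched) were chosen with earlier results of these data known. Named were the 10 members, up to 4 called genes per list and direction with the largest change, all 9p21 neighbours, overlapping genes averaging 1 CPM or more, and the 3 genes most alike to 6 members; uncalled list genes (CDKN2D, MKI67 and CDK1 among them), FBXO31 and GSK3B were chosen after their values were seen. Promoters are from RefSeq and exons from GENCODE 29. Some list genes that meet this rule are not reported here.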

Additional observations from a re-analysis of the deposited data

Results flagged for a closer look

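Dixon's ratio (the gap between an extreme sample and its neighbour, as a share of the range over 4 samples) was compared with its 95% critical value. Of 56 groups of member levels, shares and list means, 2 were singled out, where chance gives about 2.8; neither was a level or share of the 10 genes. The 16 other CDK inhibitors and G1/S kinase components had a mean of 4.35 log2 CPM in iREC E, against 4.70 to 4.78 in the other iREC samples. The blood cell markers had a mean of 1.30 log2 CPM in iEC E, against 0.833 to 0.859 in the other iEC samples, over 2 tested genes.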

How the results depend on the processing

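The direction of each of the 10 genes held under all 17 alternatives in which it was tested (CDKN2C was not tested under the stricter filter), and 8 were past the threshold under the replicate block, in which 3334 genes were called over the whole table, against 3829 without it. Under the stricter filter 7 were past it. In the fits without a sample the number ran from 6, without iREC D or without iREC E, to 9, without iREC F. The letters paired the samples only in part: the correlation of deviations from the group means was 0.17, -0.079, 0.029 and 0.25 for C, D, E and F. The iREC sample with the highest correlation had the same letter for iEC C and F, but not for iEC D and E. DESeq2 called 4954 genes on the whole table and 4664 on the filtered genes; the second fit was added after the first count had been seen. Between 2660 and 4214 genes were called in the fits without a sample. In those fits the counts of called genes ran from 3 to 6 for pocket proteins and E2F factors, from 3 to 5 for polycomb components and from 1 to 2 for the 9p21 neighbours, which also had 2 under the stricter filter and in DESeq2 on the filtered genes. As shares of raw counts, which favour long genes, CCND1 made up 92.4% of D cyclins in iEC and 68.3% in iREC, and CDK6 32.9% and 47.3% of the kinase pair. Levels near the floor of 3 counts, those of CDKN2A and CDKN2B in iREC, limit the precision of their folds. The low iEC counts of CDKN2C, 6 to 18, limit the precision of its fold and of its spread over iEC.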
